A study of Mus musculus with 12 samples.

Results

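Lep, Adipoq, Plin1, Cidec, Cfd, Fabp4, Retn, Pparg and Lipe are genes of the white adipocyte, the fat-storing cell, and were followed library by library in muscle RNA of diabetic mice. They were picked by symbol, 9 of the 22390 features in the deposited table, and all 9 passed the filter on low values that left 10666 genes for testing. The study asked how high-intensity interval training (HIIT), semaglutide and both together change transcript levels in db/db mice, an obese and diabetic strain whose leptin receptor is defective. The 12 libraries came from male C57BL/KsJ db/db mice that entered the study at 8 weeks of age, 3 libraries in each of 4 groups, and every group carries the db/db genotype. Combination mice had both interventions for 8 weeks. HIIT mice trained on a treadmill 5 days a week, each session made of 10 runs lasting 4 min at 85 to 90% of top speed, with slower running for 2 min after each. Semaglutide mice received the long-acting GLP-1 receptor agonist under the skin, at a dose given as 30 nmol/kg daily in the protocol and as 0.05 mg/kg in the titles, which were not reconciled here. Control mice were reared normally, and the labels name no vehicle injection for the control or HIIT groups. A lean group is not among the 12 libraries.

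White adipocytes store triglyceride in a single large droplet and release hormones from it. Leptin signals the size of that store through the leptin receptor, the protein that is defective in these animals, whereas adiponectin acts through receptors that skeletal muscle expresses strongly. Adipocytes occur within and around skeletal muscle, between the fibres and along its surface, and their number rises in obesity.

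The values are FPKM, fragments per kilobase of transcript scaled to library depth, so levels can be set side by side between genes. The estimated depth was 17.2 to 21.3 M fragments per library, at which an FPKM of 1 in a 1 kb transcript stands for 17 to 21 fragments. Fibre genes marked the samples as skeletal muscle, with the muscle creatine kinase Ckm at 5454 to 7356 FPKM. The protocol names the soleus, but the slow myosin gene Myh7 was at 5.27 to 108 FPKM, below the fast myosin gene Myh4 at 4669 to 8898 FPKM. White adipocyte genes were present in every library. Ucp1, the heat-producing uncoupler of brown fat, lay between 0 and 0.0823 FPKM, so the brown fat marker was at or near 0. In bulk RNA, fewer adipocytes and less RNA per adipocyte cannot be told apart, and this holds for each value below.

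The region around the transcription start is shown for 3 of the genes. Lep is a hormone gene with a match to the C/EBP motif, and Plin1 a droplet gene with a pair of matches. Adipoq, against which the other genes are set below, has none. Each sequence is 300 bases of RefSeq on GRCm38.p6, 5′ to 3′ on the gene's strand, with 250 bases before the start and 50 from it. Capitals mark matches to TTGCNNAA, a motif of the C/EBP factors, which drive adipocyte differentiation together with PPARγ.
Lep, chr6:29059971-29060270, plus strand: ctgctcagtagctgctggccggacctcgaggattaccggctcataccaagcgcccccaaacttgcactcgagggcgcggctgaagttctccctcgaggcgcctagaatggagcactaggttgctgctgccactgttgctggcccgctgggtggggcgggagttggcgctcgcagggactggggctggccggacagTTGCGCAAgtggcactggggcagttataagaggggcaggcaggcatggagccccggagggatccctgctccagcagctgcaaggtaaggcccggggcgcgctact
Plin1, chr7:79732727-79733026, minus strand: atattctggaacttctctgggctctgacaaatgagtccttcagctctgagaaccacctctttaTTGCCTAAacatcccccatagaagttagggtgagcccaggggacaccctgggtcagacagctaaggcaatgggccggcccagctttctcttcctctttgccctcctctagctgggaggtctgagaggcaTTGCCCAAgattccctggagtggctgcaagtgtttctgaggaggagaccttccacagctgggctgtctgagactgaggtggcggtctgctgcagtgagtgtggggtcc
Adipoq, chr16:23146286-23146585, plus strand: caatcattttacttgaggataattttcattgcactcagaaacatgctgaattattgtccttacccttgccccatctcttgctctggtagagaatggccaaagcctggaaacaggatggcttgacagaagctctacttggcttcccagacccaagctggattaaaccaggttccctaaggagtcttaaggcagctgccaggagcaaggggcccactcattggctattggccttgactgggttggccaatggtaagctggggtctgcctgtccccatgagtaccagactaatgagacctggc
The match in Lep, TTGCGCAA, starts 55 bases before the transcription start and reads the same on both strands. Plin1 holds TTGCCTAA and TTGCCCAA, which start 187 and 58 bases before its start. RefSeq gave 12 such windows for 8 of the 9 genes, all but Fabp4. TTGCNNAA was found on either strand in 4 of these 12 windows, belonging to Lep, Plin1, Cidec and Pparg, against 10.8% of 32851 windows of all genes. AGGTCA, the half-site of nuclear receptors such as PPARγ, was found in 2 of the 12, both of Pparg, against 16.3% of all windows. These matches describe letters in a window and were not tested as sites.

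Leptin transcript was present in all 12 libraries and spanned 14.5-fold. Lep, which encodes the hormone, stood at 53.0, 13.7 and 12.6 FPKM in combination muscle, 35.5, 55.0 and 44.6 FPKM in HIIT muscle, 7.29, 5.80 and 24.9 FPKM in semaglutide muscle, and 3.79, 50.9 and 4.59 FPKM in control muscle. The 3 HIIT libraries were all high, while the other groups each held 1 high library and a pair of lower ones. Control replicate 2 lay inside the HIIT range, so these groups overlapped. Means were 26.4 ± 23.1 FPKM under the combination, 45.0 ± 9.78 under HIIT, 12.7 ± 10.6 under semaglutide and 19.8 ± 27.0 in controls (SD, n = 3 each). The standard deviation exceeded the mean in controls alone, and only HIIT had a spread well below its mean.

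Adipoq, which encodes adiponectin, ranged from 6.78 to 77.6 FPKM. Its 3 values were 52.8, 15.7 and 10.7 FPKM under the combination, and 77.6, 51.2 and 39.9 FPKM under HIIT. Semaglutide libraries stood at 9.60, 8.54 and 30.5 FPKM, and controls at 6.78, 44.8 and 14.4 FPKM. The libraries fell into a lower and an upper set of 6, divided by a gap between 15.7 and 30.5 FPKM, 0.91 on the log2 scale, where the next widest gap was 0.55. The upper set held combination replicate 1, the 3 HIIT libraries, semaglutide replicate 3 and control replicate 2.

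**Figure D1:**
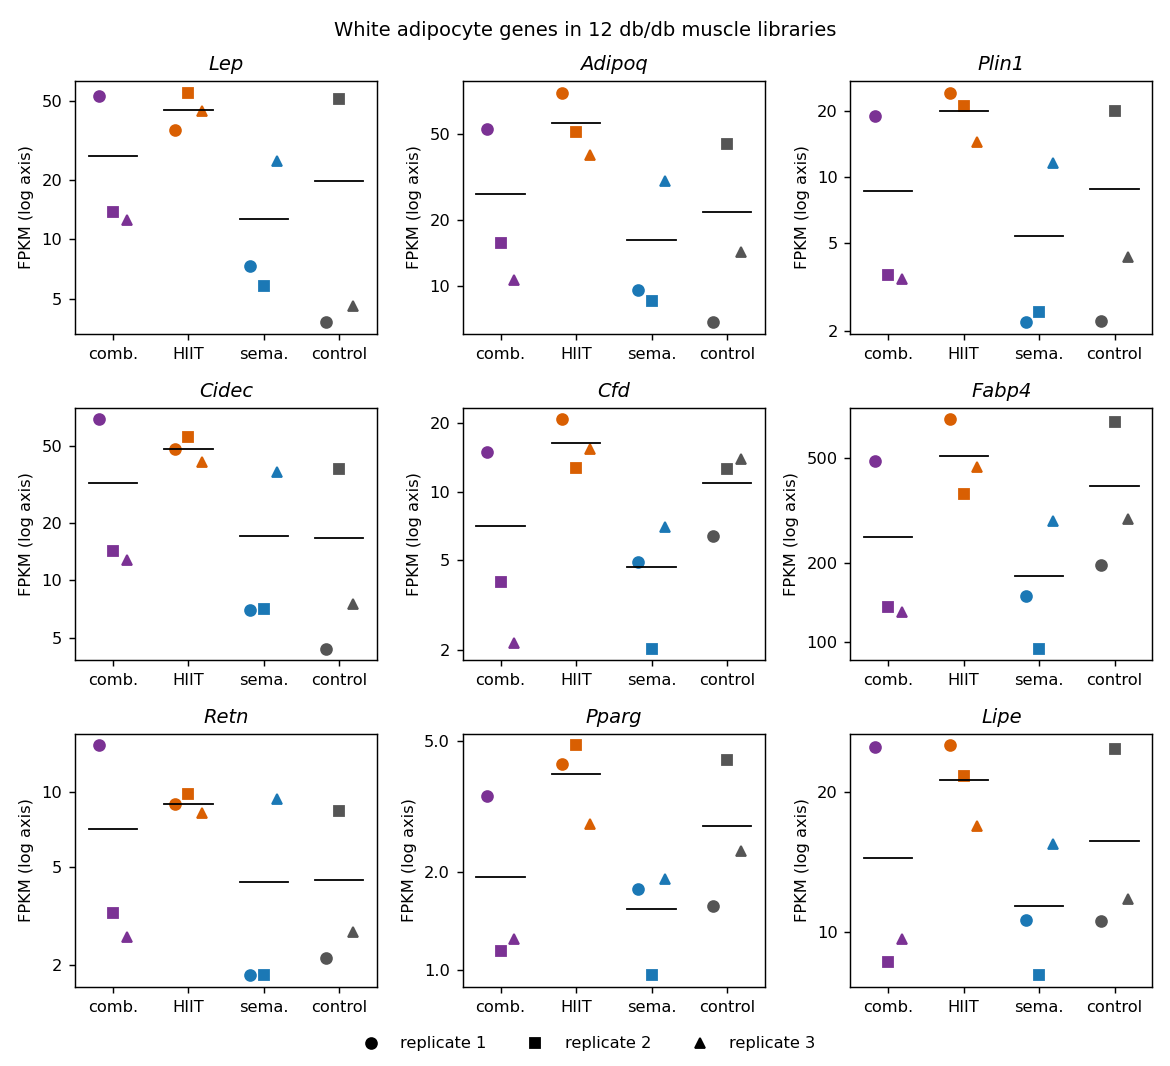
FPKM of the 9 genes on log axes, 1 point per library and 3 libraries per group, with a bar at the mean of each group. The HIIT points cluster high in most panels, and combination replicate 1, semaglutide replicate 3 and control replicate 2 stand above the rest of their own groups for Lep, Adipoq, Plin1, Cidec and Retn.

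Retn encodes resistin, a hormone that mouse adipocytes secrete. It stood at 15.4, 3.25 and 2.60 FPKM in combination muscle, 8.96, 9.79 and 8.23 FPKM in HIIT muscle, 1.81, 1.82 and 9.34 FPKM in semaglutide muscle, and 2.13, 8.39 and 2.71 FPKM in control muscle. HIIT had the narrowest spread of the 4 groups, 8.99 ± 0.780 FPKM, and its range included the highest control library. Of the variance of Retn on the log2 scale, 72.1% lay within groups, the largest share among the 9 genes.

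Cfd encodes adipsin, complement factor D, a serine protease that adipocytes release. Its values were 15.0, 4.01 and 2.15 FPKM under the combination, 20.9, 12.7 and 15.5 FPKM under HIIT, 4.92, 2.03 and 7.01 FPKM under semaglutide, and 6.40, 12.6 and 14.0 FPKM in controls. Here control replicate 3, low for Lep and Plin1, was as high as control replicate 2. The share of its variance within groups, 46.4%, was the smallest of the 9.

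Among the lipid droplet genes, Cidec had the widest range of the set, 15.9-fold. It encodes a protein that fuses droplets into the large droplet of the white adipocyte. Cidec stood at 69.4, 14.3 and 12.7 FPKM in combination muscle, 48.3, 55.8 and 41.6 FPKM in HIIT muscle, 7.0, 7.11 and 36.8 FPKM in semaglutide muscle, and 4.38, 37.9 and 7.48 FPKM in control muscle. All 3 HIIT libraries lay above all 3 controls, the only one of the 9 genes for which these groups did not overlap. That is 1 of 9, beside 4.37% of all genes tested whose HIIT libraries lay apart and higher.

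Plin1 encodes perilipin 1, the coat protein that guards the droplet of adipocytes from lipases. It stood at 19.0, 3.59 and 3.45 FPKM in combination muscle, 24.2, 21.0 and 14.4 FPKM in HIIT muscle, 2.19, 2.44 and 11.6 FPKM in semaglutide muscle, and 2.21, 20.0 and 4.36 FPKM in control muscle. The high libraries were those of Adipoq, and the lowest of them, semaglutide replicate 3, was well above the highest of the remaining 6.

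Lipe encodes hormone-sensitive lipase, which muscle fibres also express, and it varied least, 3.14-fold. Its values were 25.0, 8.60 and 9.64 FPKM under the combination, 25.3, 21.7 and 17.0 FPKM under HIIT, 10.6, 8.04 and 15.5 FPKM under semaglutide, and 10.5, 24.8 and 11.8 FPKM in controls. No library fell below 8.04 FPKM.

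Fabp4, the fatty acid carrier of adipocytes, which capillary endothelium also makes, was the most abundant of the 9. It stood at 485, 135 and 130.4 FPKM in combination muscle, 699, 365 and 458 FPKM in HIIT muscle, 150.1, 94.3 and 288 FPKM in semaglutide muscle, and 197, 679.9 and 292 FPKM in control muscle. Control replicate 3, at 292 FPKM, lay just above semaglutide replicate 3, at 288 FPKM, and the lowest 4 values belonged to mice that received semaglutide. Summed over 10 endothelial markers, the level was 94.6 to 124 FPKM in combination libraries, 101 to 170.2 in HIIT libraries, 112 to 123 in semaglutide libraries and 145 to 158 in control libraries, with all 10 measured and its part in the Fabp4 values not tested.

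Pparg encodes PPARγ, the nuclear receptor on which adipocyte differentiation depends, and was the least abundant. Its levels were 3.40, 1.15 and 1.25 FPKM under the combination, 4.26, 4.85 and 2.79 FPKM under HIIT, 1.77, 0.965 and 1.90 FPKM under semaglutide, and 1.57, 4.37 and 2.31 FPKM in controls. Pparg reached an FPKM of 1 in 11 of the 12 libraries. At an FPKM of 1, near the lowest of these values, a 1 kb transcript is represented by 17 to 21 fragments at the estimated depth.

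By mean level the HIIT group was highest for every one of the 9 genes. Semaglutide had the lowest mean for 8 of them, the exception being Cidec, with 17.0 ± 17.2 FPKM under semaglutide and 16.6 ± 18.5 FPKM in controls. Neighbours below HIIT in that order differed by less than their spread for all 9 genes. The highest library exceeded the lowest by 3.14-fold to 15.9-fold, against a median of 1.77-fold over all genes tested. In standard deviation over the 12 libraries on the log2 scale, the 9 genes exceeded 93.8 to 99.3% of genes. Between 46.4 and 72.1% of that variance lay within groups, against a median of 55.1% over all genes.

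The same 6 libraries that were highest for Adipoq were highest for Lep, Plin1, Cidec, Retn and Lipe. For Cfd, Fabp4 and Pparg, control replicate 3 took the place of semaglutide replicate 3. Because the libraries lie in separate sets, no correlation over all 12 is given as a test, and each gene was set against Adipoq as deviations from the group means. In the combination, semaglutide and control groups those deviations still set a high library apart from the rest. On that measure Pearson's r was 0.982 for Plin1, 0.962 for Cidec, 0.953 for Fabp4, 0.939 for Lipe and 0.937 for Retn. Lep had an r of 0.897, Pparg of 0.879 and Cfd of 0.811. The adjusted p of r was 0.00823 to 0.0208 over the 8 relations, by an exact permutation test within groups, two-sided, with 1296 arrangements. Spearman's rho was 0.797 to 0.965, with adjusted p of 0.00823 to 0.0177 by the same exact test.

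Control replicate 2 and combination replicate 1 deviated most from their own group means in Adipoq. With both left out of the correlation, r was 0.740 to 0.962 and the adjusted p 0.0556 to 0.188 by the exact permutation test. The group means still included both libraries, so these values of r are not free of them. No relation passed in the 10 libraries left. Leaving libraries out also cut the arrangements from 1296 to 144, so the lost calls cannot be assigned to these 2 libraries alone. That smaller design, with 144 arrangements, cannot go below an unadjusted p of 0.00694.

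**Figure D2:**
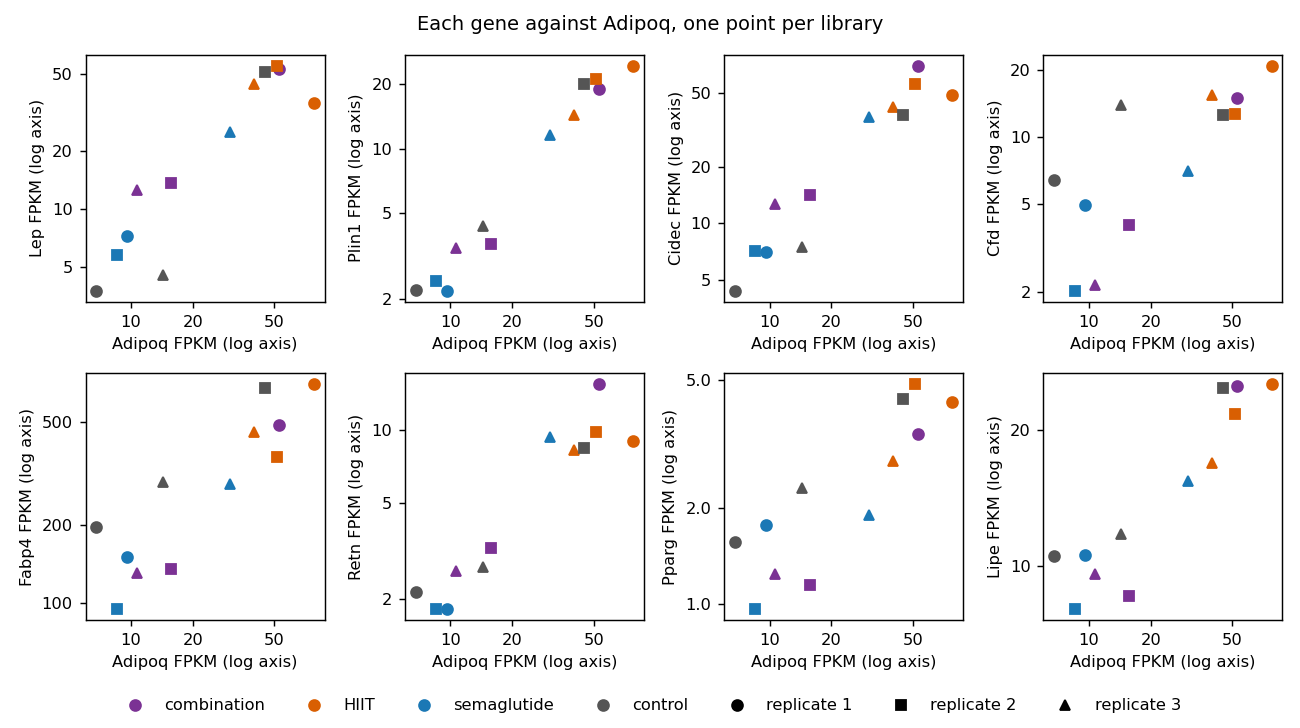
FPKM of 8 genes (vertical log axes) against Adipoq (horizontal log axes), 1 point per library, coloured by group and shaped by replicate. The points form a lower and an upper set of 6 divided between 15.7 and 30.5 FPKM of Adipoq, and control replicate 3 sits high in the Cfd and Fabp4 panels for its Adipoq level.

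Relative to Adipoq, the genes were not in one fixed proportion. Lep over Adipoq was 1.01, 0.867 and 1.18 in combination libraries, 0.457, 1.07 and 1.12 in HIIT libraries, 0.760, 0.679 and 0.817 in semaglutide libraries, and 0.559, 1.14 and 0.320 in control libraries. The ratio was thus between 0.867 and 1.18 in all 3 combination libraries, both the one with high and the pair with low Adipoq, while controls spanned 0.320 to 1.14. For Cidec over Adipoq the values were 1.32, 0.906 and 1.19 under the combination, 0.622, 1.09 and 1.04 under HIIT, 0.729, 0.833 and 1.21 under semaglutide, and 0.645, 0.847 and 0.521 in controls. The lowest combination ratio, 0.906, lay narrowly above the highest control ratio, 0.847. For Fabp4 over Adipoq these groups lay apart in the opposite direction, the highest combination ratio, 12.2, being below the lowest control ratio, 15.2. The share of all genes whose ratio to Adipoq separates these groups was not computed.

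The highest ratio to Adipoq was in a control library for 6 of the 8 genes, Fabp4, Cfd, Lipe, Pparg, Retn and Plin1, and in a combination library for Lep and Cidec. For Fabp4, Lipe, Pparg and Retn that library was control replicate 1, which had the lowest Adipoq of the 12, 6.78 FPKM. All these ratios share that denominator. Fabp4 over Adipoq was 9.19, 8.60 and 12.2 in combination libraries, 9.01, 7.12 and 11.5 in HIIT libraries, 15.6, 11.1 and 9.45 in semaglutide libraries, and 29.0, 15.2 and 20.3 in control libraries. Cfd over Adipoq was 0.285, 0.255 and 0.202 in combination libraries, 0.270, 0.249 and 0.388 in HIIT libraries, 0.512, 0.238 and 0.230 in semaglutide libraries, and 0.943, 0.281 and 0.973 in control libraries. For both genes control replicates 1 and 3 lay above the other 10 libraries. Lipe over Adipoq was 0.474, 0.546 and 0.903 in combination libraries, 0.326, 0.424 and 0.425 in HIIT libraries, 1.10, 0.941 and 0.507 in semaglutide libraries, and 1.55, 0.553 and 0.819 in control libraries. Over the 12 libraries the Pparg ratio ran from 0.0549 to 0.231, that of Retn from 0.116 to 0.314 and that of Plin1 from 0.228 to 0.448, the narrowest of the 8 in highest over lowest. The ratios are given as a description, with no test.

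**Figure D3:**
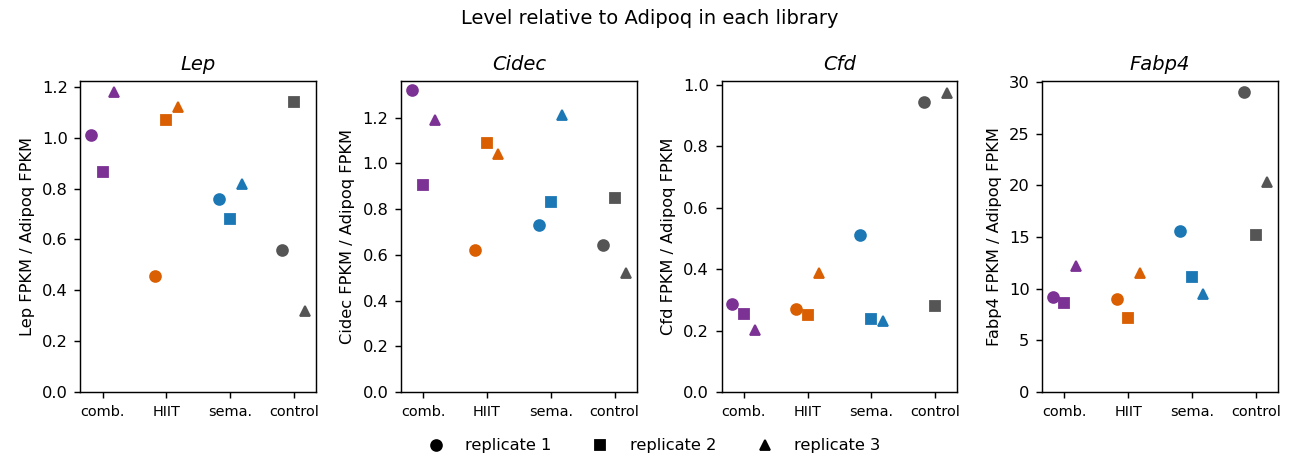
Ratio of Lep, Cidec, Cfd and Fabp4 to Adipoq in FPKM, on linear axes from 0, 1 point per library and 3 per group. The combination libraries lie between 0.867 and 1.18 for Lep, and for Cfd control replicates 1 and 3, at 0.943 and 0.973, lie above the other 10 libraries.

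Training alone set against control gave higher log-scale means for all 9 genes, where 44.1% of all genes lay above 0, and none passed the test. The differences in log2(FPKM + 1), with limma's SE and 3 libraries per group, were 2.02 ± 0.90 for Lep, 2.02 ± 0.86 for Cidec, 1.65 ± 0.73 for Adipoq and 1.52 ± 0.80 for Plin1. Their limma adjusted p were 0.551, 0.531, 0.555 and 0.624 in that order. Retn differed by 1.06 ± 0.66, Cfd by 0.57 ± 0.56, Fabp4 by 0.53 ± 0.61, Lipe by 0.50 ± 0.41 and Pparg by 0.45 ± 0.33. Thus 0 of 9 were called by limma, where 0% of all genes were called, and 3 of 9, Lep, Adipoq and Cidec, had an unadjusted p under 0.05, as did 952 of all 10666 genes. The median of the 9 was 1.06, beside -0.03 over all genes. The size of the difference depended on which control was kept: without control replicate 2 it was 3.13 for Lep and 2.87 for Cidec, and without control replicate 1 it was 1.41 and 1.44.

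Macrophage markers also lay higher in this comparison. Of 12 listed, 11 were tested, all 11 lay above 0 with a median of 0.54, and 0 were called by limma. Their summed level was 28.0 to 107 FPKM in combination libraries, 36.1 to 187 in HIIT libraries, 25.2 to 38.5 in semaglutide libraries and 38.7 to 123 in control libraries. With a macrophage score as a covariate the median of the 9 genes between HIIT and control was 0.67, against 1.06 without it, and all 9 lay above 0 in both fits. Fibroblast markers lay above 0 for 9 of 10, with a median of 0.33, and endothelial markers below 0 for 9 of 10, with a median of -0.25, and limma called 0 in each list. Liver transcripts, 7 hepatocyte markers led by serum albumin, summed to 1.40 to 6.14 FPKM in combination libraries, 5.81 to 333 in HIIT libraries, 1.48 to 6.53 in semaglutide libraries and 171 to 1206 in control libraries. The median difference of the 7 between HIIT and control was -2.65, opposite in sign to the 9 adipocyte genes, and 0 of them were called by limma. The part of the liver transcripts in the result was not tested. No marker of these lists was at 0 in all 12 libraries.

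Averaged over the presence of semaglutide, exercised libraries again had higher values for all 9 genes, with a median difference of 0.80, where 34.7% of all genes lay above 0. Without combination replicate 1 that median was 0.46, still with all 9 above 0, and limma called 251 of all genes, 14 higher and 237 lower, none of them among the 9. Lep differed by 1.49 ± 0.63 and Cidec by 1.44 ± 0.61, with limma adjusted p of 0.381 and 0.377. Adipoq differed by 1.11 ± 0.52 and Plin1 by 1.02 ± 0.57. None of the 9 passed, among 0% of all genes called by limma. Lep and Cidec, 2 of the 9, had an unadjusted p under 0.05, as did 1341 of all 10666 genes. All comparisons here draw on the same 4 groups, share libraries and are not independent of each other.

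Semaglutide, averaged over exercise, went with lower values of all 9 genes, where 34.5% of all genes lay above 0, and again none passed. Cfd came nearest, with a log2 difference of -1.28 ± 0.40 and a limma adjusted p of 0.0516. Fabp4 differed by -1.17 ± 0.43 (limma adjusted p = 0.0894) and Pparg by -0.67 ± 0.23 (limma adjusted p = 0.0714). These 3 of the 9 genes had an unadjusted p under 0.05, as did 3658 of all 10666 genes. Differences for the rest were -0.96 ± 0.57 for Plin1, -0.80 ± 0.52 for Adipoq, -0.52 ± 0.29 for Lipe, -0.51 ± 0.63 for Lep, -0.42 ± 0.61 for Cidec and -0.40 ± 0.47 for Retn. Beside the 0 of 9 called stand 16.8% of all genes called by limma, 4.69% higher and 12.2% lower, and a median of -0.67 for the 9 beside -0.08 over all genes.

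That outcome depended on 1 library, combination replicate 1. Without it, 4 of the 9 genes fell under semaglutide by limma: Cfd by 1.61 (adjusted p = 0.0097), Fabp4 by 1.48 (adjusted p = 0.0275), Pparg by 0.83 (adjusted p = 0.0188) and Lipe by 0.75 (adjusted p = 0.0455). In the same fit 2547 of all 10666 genes were called, against 1796 with it. Combination replicate 1 was the highest library of its group for all 9 genes, with 485 FPKM of Fabp4 against 135 and 130.4 FPKM in the other two. In the 6 libraries with semaglutide the Cfd values were 2.03 to 15.0 FPKM, against 6.40 to 20.9 FPKM in the 6 without it. Leptin's direction turned on another library, since its difference was 0.05 without control replicate 2. Fibroblast and endothelial markers also moved here: 6 of 10 fibroblast markers and 5 of 10 endothelial markers fell by limma, as did all 7 hepatocyte markers. Macrophage markers lay below 0 for all 11 tested, with a median of -0.69, and 0 passed.

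The combination set against HIIT alone gave lower values of all 9 genes with a median of -1.04, where 32.4% of all genes lay above 0. The median was -1.77 without combination replicate 1, and -0.74 and -0.69 without replicates 2 and 3 of that group. Plin1 differed by -1.46 ± 0.80, Cfd by -1.43 ± 0.56, Adipoq by -1.33 ± 0.73 and Fabp4 by -1.25 ± 0.61. Lep differed by -1.04 ± 0.90 and Pparg by -0.82 ± 0.33. None of the 9 passed, with limma adjusted p of 0.139 to 0.536, among 3.01% of all genes called. Cfd and Pparg, 2 of the 9, had an unadjusted p under 0.05, as did 2893 of all 10666 genes. Without combination replicate 1 both fell by limma, Cfd by 2.1 (adjusted p = 0.0201) and Pparg by 1.16 (adjusted p = 0.0330), while the calls over all genes stood at 1574 without this library and 321 with it. In this comparison fibroblast markers lay below 0 for all 10, with a median of -0.70, and 3 fell by limma, Ly6a, Cd34 and Dpt. Macrophage markers lay below 0 for all 11 tested with a median of -0.94, endothelial markers for 9 of 10 with a median of -0.26 and hepatocyte markers for all 7 with a median of -1.996, and 0 passed in these lists. With a macrophage score as a covariate the median of the 9 genes was -0.48.

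Against control, the combination left 5 of the 9 above 0 and 4 below, with a median of 0.06 and 29.1% of all genes above 0, and 0 passed, among 6.26% of all genes called by limma. None had an unadjusted p under 0.05, where 2763 of all 10666 genes did. The sign of that median turned on single libraries: it was -0.63, with 2 of the 9 above 0, without combination replicate 1, and -0.39 and -0.15 without control replicates 1 and 3. It was 0.84 without control replicate 2, and 0.40 and 0.43 without combination replicates 2 and 3. Without combination replicate 1, Cfd was called lower by limma, 1 of the 9, among 1643 of all 10666 genes called, 1469 of them lower. Semaglutide alone against control left 2 above 0, Lep and Cidec, and 7 below, with a median of -0.38 and 41.5% of all genes above 0, and 0 passed, among 3.72% of genes called. Here too the direction turned on single libraries, with 5 above 0 and a median of 0.32 without control replicate 2. The median was -0.76 without semaglutide replicate 3 and -0.75 without control replicate 1, with none above 0 in either case, and -0.11 and -0.17 without semaglutide replicates 1 and 2.

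The combination set against semaglutide alone gave 9 above 0 with a median of 0.52, where 34.6% of all genes lay above 0, and 0 passed, among 0.00938% called. Without combination replicate 1 the direction turned, to 2 above 0 and 7 below with a median of -0.19, and limma called 557 of all genes, 516 of them lower, where it called 1 with this library. The median was 0.31, 0.23 and 1.12 without semaglutide replicates 1, 2 and 3. For the interaction of HIIT and semaglutide all 9 lay below 0 with a median of -0.52, where 39.6% of all genes lay above 0, 0 passed and 0% of genes were called. Leaving out 1 library moved this median over a range of -1.21 without combination replicate 1, where 24 of all genes were called, to -0.16 without combination replicate 3. In semaglutide against control, combination against semaglutide and the interaction, 0 of the 9 genes had an unadjusted p under 0.05. Of all 10666 genes, 2013, 1292 and 822 did, in that order. An F test over the 4 groups passed 0 of the 9, with limma adjusted p of 0.165 to 0.476, among 6.11% of all genes. Cfd alone of the 9 had an unadjusted p under 0.05 in that test, as did 3038 of all 10666 genes.

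**Figure D4:**
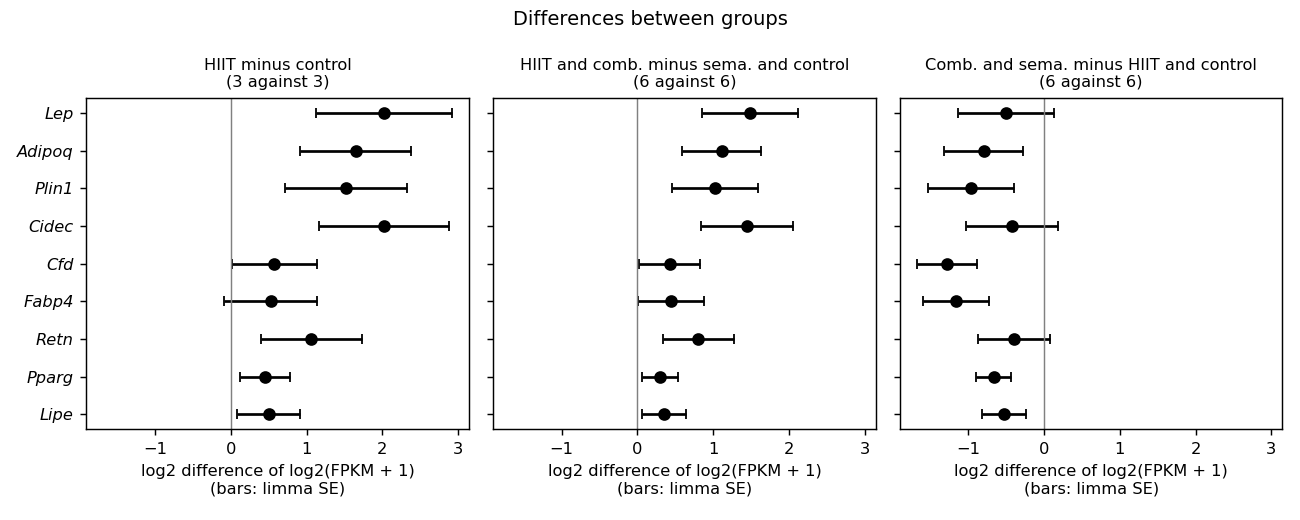
Log2 differences of the 9 genes in 3 comparisons, points with bars of 1 limma SE, from a fit on 12 libraries. All 9 points lie above 0 for HIIT against control and for HIIT averaged over semaglutide, and below 0 for semaglutide averaged over exercise, and none passed at an adjusted p of 0.05.

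Other genes expressed in adipocytes, not all of them restricted to these cells, were followed from a list of 15 that does not overlap the 9. Of these, 13 passed the filter. Against control, HIIT put 11 of the 13 above 0 with a median of 0.75, and 0 were called by limma. Averaged over exercise, semaglutide put 12 of the 13 below 0 with a median of -0.77, with 1 called lower and 1 higher. Over all genes the called share in this comparison was 16.8%. Aqp7, the glycerol channel of adipocytes, fell by 1.18 ± 0.23 (limma adjusted p = 0.0105), with 2.20 to 4.41 FPKM in combination libraries, 5.02 to 12.3 in HIIT libraries, 1.59 to 3.94 in semaglutide libraries and 8.10 to 8.40 in control libraries. The 6 libraries with semaglutide lay below the 6 without it, as for 4.02% of all genes. Plin4, a droplet coat protein that muscle fibres also express, rose by 0.68 ± 0.20 (limma adjusted p = 0.0387), with 78.6 to 162 FPKM in combination libraries, 55.3 to 94.0 in HIIT libraries, 111 to 169 in semaglutide libraries and 63.8 to 82.4 in control libraries. Nnat and Sncg, the next most abundant of the list, differed by -1.91 ± 0.67 and -1.05 ± 0.45 in the same comparison without passing. Of 10 brown or beige fat markers, 2 passed the filter and 1 fell, Cidea, a relative of Cidec, by 0.89 ± 0.20 (limma adjusted p = 0.0171). None of 10 muscle fibre markers was called by limma in that comparison.

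**Figure D5:**
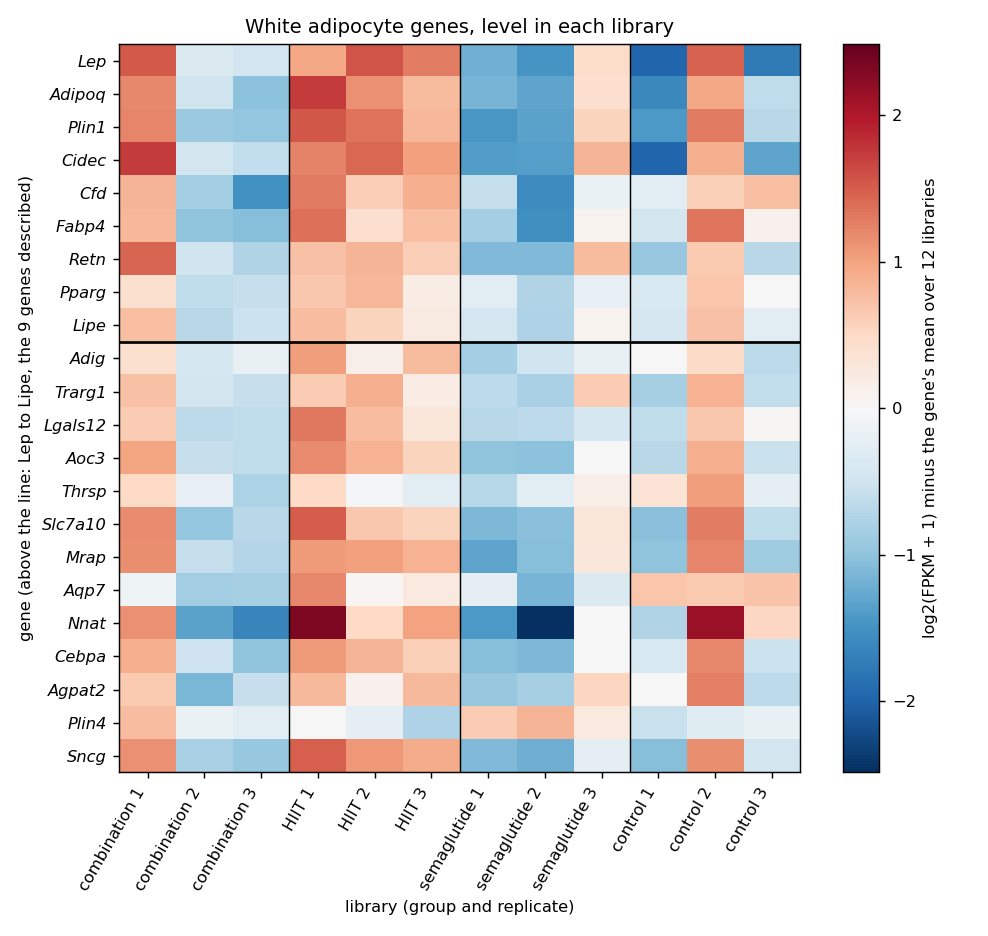
Heat map of log2(FPKM + 1) of the 9 genes and of 13 further adipocyte genes, as differences from each gene's mean over the 12 libraries, with libraries as columns by group. Combination replicate 1, the HIIT libraries and control replicate 2 are high across most rows, semaglutide replicate 3 is high for fewer of them, and Plin4 and Aqp7 depart from that pattern.

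Of 16 listed genes of triglyceride synthesis, 15 were tested, and under semaglutide averaged over exercise 1 rose, 1 fell and 13 did not pass. Beside these stand 16.8% of all genes called by limma in that comparison. Lpin1, a phosphatidate phosphatase, rose by 0.50 ± 0.12 (limma adjusted p = 0.0195). Pck1, which serves glyceroneogenesis in fat and gluconeogenesis in liver, fell by 2.55 ± 0.51 (limma adjusted p = 0.0126). Pck1 stood at 0.531 to 3.91 FPKM in combination libraries, 3.27 to 23.1 in HIIT libraries, 0.392 to 2.69 in semaglutide libraries and 9.78 to 40.4 in control libraries, and the hepatocyte markers above were highest in the same groups. Gpd1, Lpl and Scd1, the most abundant of the list, differed by 0.19 ± 0.13, -0.41 ± 0.20 and -1.18 ± 0.65 and did not pass. Scd1, which desaturates fatty acids, stood at 24.5 to 113 FPKM in combination libraries, 75.0 to 112 in HIIT libraries, 9.47 to 67.5 in semaglutide libraries and 20.7 to 208 in control libraries.

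Of 14 genes of lipolysis and its control, 13 were tested, and 3 fell and 0 rose under semaglutide averaged over exercise. Limma called 16.8% of all genes there. Adora1, the adenosine receptor that restrains lipolysis in adipocytes, fell by 1.29 ± 0.22 (limma adjusted p = 0.00615), with 0.885 to 2.59 FPKM in combination libraries, 3.67 to 5.23 in HIIT libraries, 0.697 to 1.53 in semaglutide libraries and 2.43 to 6.21 in control libraries. Mgll, the lipase of the last step, fell by 0.71 ± 0.21, and G0s2, an inhibitor of the first lipase, fell by 0.73 ± 0.22 (limma adjusted p = 0.0439 and 0.0450). Pnpla2, which encodes that first lipase and is abundant in fibres, was at 143 to 210 FPKM in combination libraries, 125 to 179.5 in HIIT libraries, 147 to 218 in semaglutide libraries and 136 to 179 in control libraries, a difference of 0.16 ± 0.13 that did not pass. Prkaca and Plin5, the next most abundant of the list, differed by -0.03 ± 0.07 and 0.47 ± 0.21 and did not pass either.

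Among 11 transcription factors of adipogenesis besides Pparg, all 11 were tested, and under semaglutide averaged over exercise 2 rose and 1 fell. The share called over all genes was 16.8%. Cebpd and Cebpb, which act early in adipocyte differentiation and are also stress-responsive in other cells, rose by 1.24 ± 0.22 and 0.38 ± 0.08 (limma adjusted p = 0.00774 and 0.0108). Cebpd stood at 11.9 to 24.3 FPKM in combination libraries, 4.32 to 9.51 in HIIT libraries, 18.1 to 19.3 in semaglutide libraries and 6.02 to 11.6 in control libraries, so the 6 libraries with semaglutide lay above the 6 without it, as for 2.28% of all genes. Ebf1 fell by 0.52 ± 0.13 (limma adjusted p = 0.0209). Rxrg and Rxra, which encode partners of PPARγ and were the most abundant, differed by 0.04 ± 0.10 and 0.09 ± 0.09 without passing. The early factors rose while Pparg, at -0.67 ± 0.23, did not pass.

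The receptors of these hormones were listed as well. Lepr, the leptin receptor gene, stood at 0.0785 to 0.182 FPKM over the 12 libraries and did not reach the filter, while Lep itself was at 3.79 FPKM or more in every library. Adipor1 and Adipor2, the adiponectin receptors, were at 70.2 to 90.3 and 24.7 to 33.0 FPKM over the 12 libraries. They differed by 0.07 ± 0.07 and 0.02 ± 0.07 under semaglutide averaged over exercise, neither passing. Cdh13, which binds adiponectin at the cell surface, stood at 16.9 to 22.3 FPKM. Cap1, a receptor proposed for human resistin, fell by 0.35 ± 0.11 (limma adjusted p = 0.0417). It was the 1 called gene of the 10 tested on a list of 11, beside 16.8% of all genes called. For HIIT against control, limma called 0 genes on each of these lists.

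Genes with the pattern most like Adipoq over the 12 libraries were Niban2 with Pearson's r of 0.970, Aoc3 with 0.968, Prkar2b with 0.967, Sncg with 0.967 and Slc7a10 with 0.964. For Lep they were Pgd with 0.970, Prkar2b and G6pdx with 0.965 each, Tmem45b with 0.963 and Lpgat1 with 0.960. Of 10657 other genes tested, 50 had an r above 0.9 to Adipoq, and the median over all was 0.179. These values describe likeness over 12 libraries that share groups and lie in separate sets, and no p is given for them.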

How the data were processed

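RNA with poly(A) tails from 12 muscle samples was sequenced in strand-specific, paired-end libraries, per the labels' protocols. The authors deposited FPKM values in 1 table of 22390 features, and raw counts were not used here. Tools named in the submitters' processing notes, with no role for each, are StringTie 2.1.4, featureCounts 2.0.1, STAR 2.7.9a, Trimmomatic 0.36, FastQC and CASAVA, with the build GRCm39. Which of them gave FPKM is not given in the sources used here. FPKM scales each library to its total, so a shift in abundant transcripts moves all others. The deposited values summed to 533412 to 586817 per library. Depth was estimated from the smallest FPKM steps of 4431 genes with 1 transcript, using GENCODE M21 lengths of GRCm38, which is not the authors' build.

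The model was run in limma 3.58.1 (R 4.3.3) on log2(FPKM + 1), with a mean for each of 4 groups over 12 libraries and trended, robust empirical Bayes. It covered the 10666 genes that reached an FPKM of 1 in 3 libraries or more. All p are two-sided and were adjusted by Benjamini and Hochberg's method over these genes, with calls at an adjusted p of 0.05. Fold changes are on the log2(FPKM + 1) scale, which understates those of low genes. All 9 genes passed the filter, so no separate test of genes left out was needed. The planned correlation over all 12 libraries was replaced by one of deviations from group means, since the libraries fell into 2 sets. Those deviations keep that division in part. Genes named are the 9, the called and the 3 most abundant genes of each list, and the 5 most like Adipoq and Lep. Members and lists were chosen with earlier results of these data known. Replicates are numbered within groups and no label describes each animal. The p-values therefore rest on differences among these libraries, which may be technical. No pair of libraries held identical values. Alternatives were pseudocounts, filters, TMM, TPM and upper-quartile scaling, plain empirical Bayes, a replicate block, score covariates, the compared groups alone and each library left out. Correlations were computed with scipy 1.17.1 in Python 3.11.15.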

Additional observations from a re-analysis of the deposited data

How the results depend on the processing

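No change of pseudocount, filter, scaling (TMM, TPM scale or upper quartile, the last added after seeing the data) or empirical Bayes setting turned the direction of any of the 9 genes in the 4 comparisons HIIT against control, combination against HIIT, semaglutide averaged over exercise and HIIT averaged over semaglutide. Without trended and robust empirical Bayes, 1 of the 9 genes was called under semaglutide averaged over exercise, Cfd, lower, among 1809 of 10666. With a score of other adipocyte genes as a covariate, 6 of the 9 differences under semaglutide averaged over exercise lay above 0. They became 0.23 for Adipoq, 0.75 for Cidec, 0.64 for Lep, 0.0566 for Lipe, 0.15 for Plin1 and 0.50 for Retn, with limma adjusted p of 0.13 to 0.76. The other 3, Cfd, Fabp4 and Pparg, stayed below 0. In combination against HIIT the differences became 0.42 for Cidec, 0.36 for Lep, 0.0372 for Lipe and 0.43 for Retn, and the other 5 stayed below 0. With that covariate Fabp4 was at -0.20 in HIIT against control and -0.10 in HIIT averaged over semaglutide, Lipe was at -0.0139 in HIIT averaged over semaglutide, and 1 gene, Cidec, was called higher in combination against control, among 831 of 10666 genes called, 138 of them higher. With a macrophage score as a covariate Cidec, Lep and Retn were at 0.23, 0.17 and 0.11 under semaglutide averaged over exercise, where the median of the 9 was -0.18, against -0.67. The cause of these changes was not tested. Leaving out each library in turn gave 0 to 1 genes called in combination against control and in the F test, 0 to 2 in combination against HIIT and 0 to 4 in semaglutide averaged over exercise, each highest count without combination replicate 1. The Lep difference under semaglutide averaged over exercise ran from -0.83 without combination replicate 1 to 0.0466 without control replicate 2. In combination against control TMM scaling moved the median of all genes to -0.01, against -0.13 as deposited. Under semaglutide averaged over exercise it gave 974 genes higher and 1048 lower, against 500 and 1296. Over all settings other than left-out libraries, calls over all genes ran from 397 to 2022 for that comparison, where 1796 were reported, from 9 to 634 for combination against HIIT (321 reported), 122 to 831 for combination against control (668), 122 to 552 for semaglutide against control (397) and 164 to 935 for the F test (652). With each library left out they ran from 874 to 2547, 18 to 1574, 4 to 1643, 33 to 552 and 115 to 1674 in the same order. The highest of these counts came without combination replicate 1, and for semaglutide against control without HIIT replicate 1. The lowest came without combination replicate 2 in the first 3, without control replicate 1 or semaglutide replicate 1 in semaglutide against control, and without semaglutide replicate 1 in the F test. They ran from 0 to 557 for combination against semaglutide (1 reported), 0 to 251 for HIIT averaged over semaglutide (0) and 0 to 24 for the interaction (0), each highest without combination replicate 1, and 0 to 1 for HIIT against control (0). Fits on the compared groups alone give no averaged effect, interaction or F test. Equal replicate numbers showed no general pairing, with correlations of -0.23 to 0.29 over 18 pairs, and 2 of 12 libraries matching best with their own number. Of the 18 pairs 4 were over 0.1, among them those between HIIT and combination, at 0.29, 0.27 and 0.22 for replicates 1, 2 and 3. Pairing of these 2 groups alone was not tested. With the number as a replicate block 0 of the 9 genes were called in any comparison. At the estimated depth, values near an FPKM of 1, such as the lowest of Pparg, rest on 17 to 21 fragments in a 1 kb transcript.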
